A study of Mus musculus with 4 samples.

Results

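Glutathione transferases of the alpha, pi and theta classes and the microsomal glutathione transferases were compared between the livers of DBA/2J and C57BL/6J mice, both inbred laboratory strains. The members were taken by symbol: Gsta1, Gsta2, Gsta3 and Gsta4 (alpha), Gstp1 and Gstp2 (pi), Gstt1 and Gstt2 (theta), and Mgst1 and Mgst3 (microsomal). All 10 were found among the 50584 gene symbols of the count tables, and all 10 passed the filter on low counts. Liver poly(A) RNA was sequenced from 4 male mice aged 14 weeks, 2 per strain. Every animal was labelled wild type and was kept on a chow diet, with no treatment named, and the libraries were taken as separate animals because the series describes 2 mice of each strain.

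Glutathione transferases join the tripeptide glutathione to electrophilic compounds, among them drug metabolites, pollutants and products of lipid peroxidation, which makes these compounds more soluble and ready for export from the cell. The alpha, pi and theta enzymes are soluble dimers. The microsomal enzymes are unrelated in sequence, sit in membranes and belong to the MAPEG family, which also holds enzymes of eicosanoid synthesis. In liver, transferase genes are known targets of the transcription factor NRF2 and of the receptors CAR, PXR and AHR.

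Library totals of assigned reads lay between 48096706 and 52520737. Hepatocyte markers were abundant in every library, with a summed level of 82464 to 95542 CPM (reads per 1e+06 reads of the TMM-scaled library) over 8 genes, none of them at 0. Bile duct markers summed to 47.3 to 47.5 CPM in DBA/2J and to 71.8 to 96.8 CPM in C57BL/6J. None of the 8 genes was at 0 throughout, and their median log2 difference was -0.16. The marker Spp1 was called lower in DBA/2J (-1.86 ± 0.21 on the log2 scale, edgeR adjusted p = 0.00474), and the other 7 were not called. C57BL/6J replicate 1 stood apart in neutrophil markers, with a sum of 11.8 CPM over 6 genes against 1.64 to 2.30 CPM in the other libraries, although none of the 6 was at 0 in all 4 libraries. Stellate cell markers summed to 226 and 273 CPM in the DBA/2J libraries and to 185 and 130.2 CPM in those of C57BL/6J (7 genes, median log2 difference 0.58, none at 0 throughout), and their marker Reln was called higher (1.30 ± 0.14, edgeR adjusted p = 0.00453). Markers of pericentral hepatocytes summed to 8378 and 7388 CPM for DBA/2J and to 9369 and 9025 CPM for C57BL/6J. None of the 10 genes was at 0 throughout, and the median log2 difference was -0.15. Glul (-0.46) and Oat (-0.96) were called lower. The other 8 were not called, with Rhbg (0.54) and Lect2 (0.03) on the higher side. Cyp2e1 (-0.11) alone stood at 5367 to 6361 CPM. The part of these cell types in the values below was not tested. In whole liver, fewer cells of a type and less RNA per cell cannot be told apart.

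In edgeR's quasi-likelihood test with Benjamini-Hochberg adjustment over all genes, 3 of the 10 members were called at an adjusted p below 0.05, against 18.2% of the 15647 genes tested. Mgst3 was higher in DBA/2J (9.29% of tested genes were called higher), and Gstt1 and Mgst1 were lower (8.87% were called lower). The other 7 members did not pass the test. The median log2 difference, DBA/2J over C57BL/6J, was -0.34 over the members and 0.01 over all tested genes. The 2 libraries of one strain did not overlap those of the other in 7 members, 1 higher and 6 lower in DBA/2J; the same held for 63.8% of tested genes (32.5% higher and 31.2% lower). The calls rested on the libraries used. Without DBA/2J replicate 1 the sole call was Mgst3, where 1.79% of genes were called, and without DBA/2J replicate 2 no member was called (0 of 10, against 1.92% of genes; DESeq2 on all 4 libraries called 4). Without C57BL/6J replicate 1 there were 6 members called (24.2% of genes), and without C57BL/6J replicate 2 there were 4 (29.9%). With the replicate number as a block, 3 members were called against 15.3% of genes. An exact permutation test of a single gene in 2 against 2 libraries cannot give a p below 0.333, so no such test was made.

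**Figure D1:**
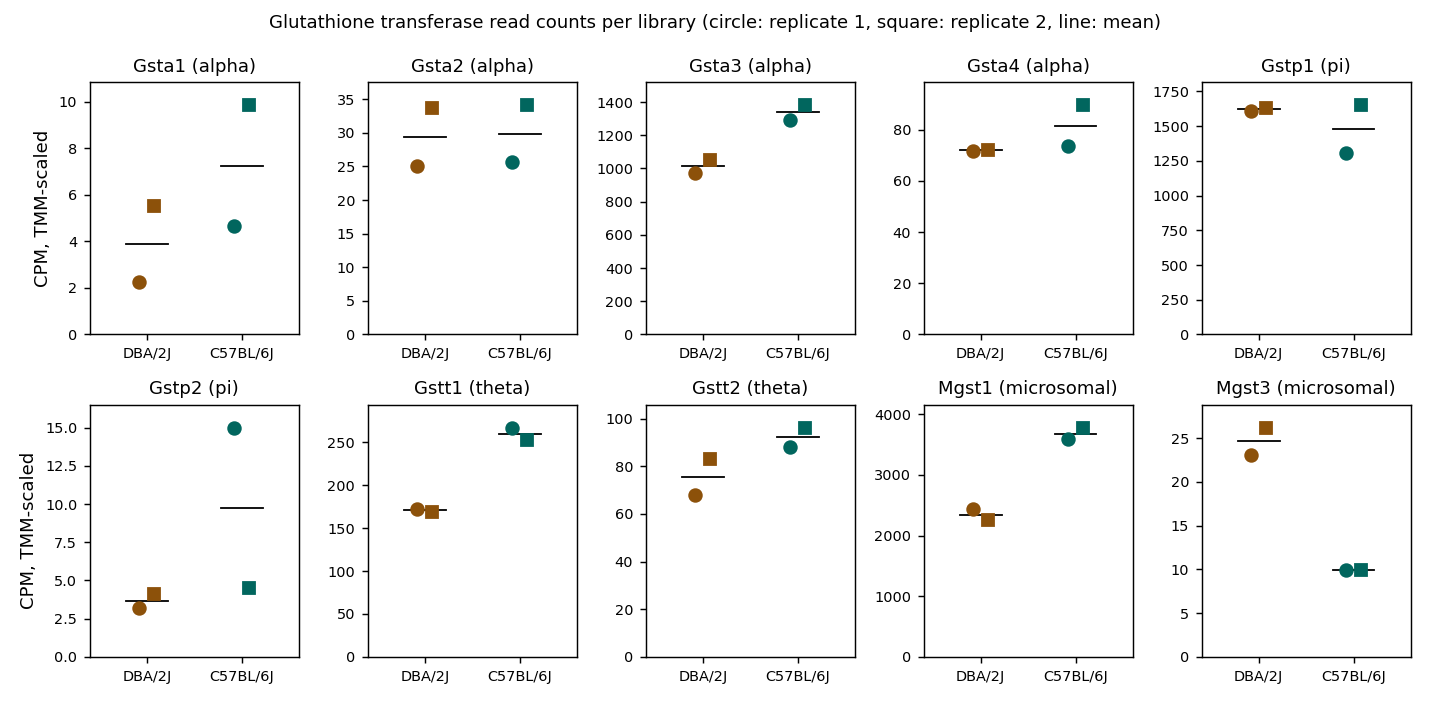
CPM of each of the 10 genes (vertical axis, TMM-scaled CPM, starting at 0 in each panel) in DBA/2J and C57BL/6J; circles are replicate 1, squares replicate 2, and lines the mean of 2 libraries. Mgst3 is the sole gene with both DBA/2J libraries above both C57BL/6J libraries, while Gstp2 shows 1 C57BL/6J library at 15.0 CPM and the other 3 libraries at 3.17 to 4.51 CPM.

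**Figure D2:**
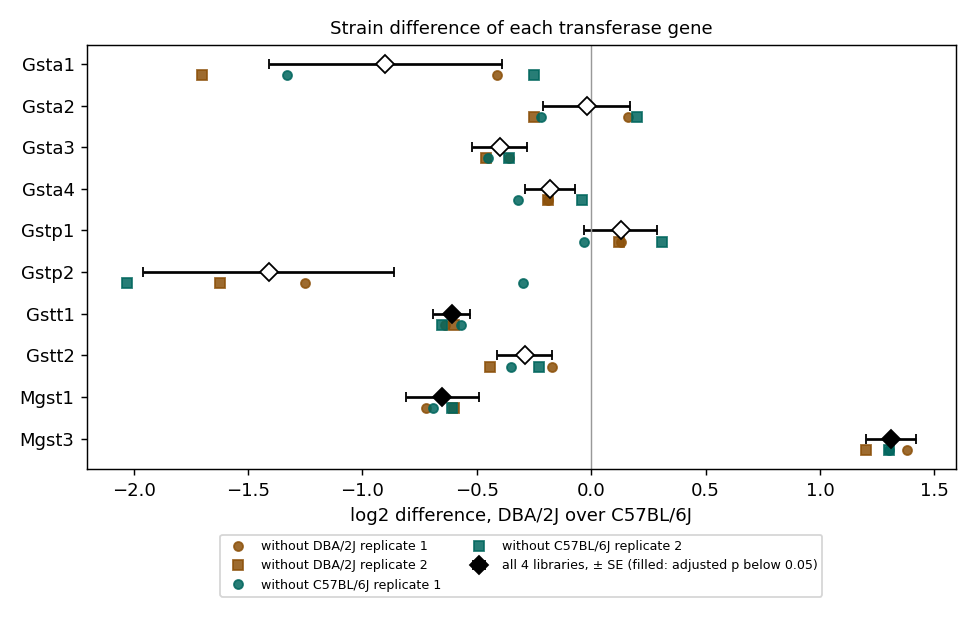
Log2 difference between the strains for each gene (horizontal axis): black diamonds give the fit on all 4 libraries with its standard error, filled where the adjusted p was below 0.05, and coloured symbols give the fits with 1 library left out. Gstt1, Mgst1 and Mgst3 hold nearly the same value in each fit, as does the uncalled Gsta3 (-0.46 to -0.36). Gsta1 and Gstp2 spread from -1.70 to -0.25 and from -2.03 to -0.30.

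Mgst3 showed the lowest adjusted p of the 10 genes. It encodes a membrane-bound transferase with glutathione peroxidase activity that can also conjugate glutathione to leukotriene A. Mgst3 lies on chromosome 1 at 167371966 to 167393841 (GRCm38, reverse strand). Mgst3 reads numbered 1113 (replicate 1) and 1452 (replicate 2) for DBA/2J, while C57BL/6J gave 486 (replicate 1) and 498 (replicate 2); pairs of values below keep this order. Both DBA/2J libraries were therefore far above both C57BL/6J libraries. DBA/2J averaged 24.7 CPM ± 2.25 (SD, n = 2) and C57BL/6J averaged 9.98 CPM ± 0.00443 (SD, n = 2), a 2.47-fold difference. On the log2 scale it was 1.31 ± 0.11 (SE), with an edgeR adjusted p of 0.00237. The log2 difference stayed between 1.20 and 1.38 with any library left out. Leaving out DBA/2J replicate 2 ended the call (edgeR adjusted p = 0.0567), and leaving out any of the other three did not.

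Mgst1 encodes the main microsomal transferase of liver, found in the endoplasmic reticulum and the outer mitochondrial membrane, with both transferase and lipid peroxidase activity. Its gene spans 138140316 to 138156755 on the forward strand of chromosome 6 (GRCm38). Its counts were 117741 and 124609 in DBA/2J and 174651 and 188599 in C57BL/6J, so the strains did not overlap. DBA/2J averaged 2347 CPM ± 133 (SD, n = 2) and C57BL/6J averaged 3681 CPM ± 138 (SD, n = 2), 1.57-fold lower in DBA/2J. The log2 difference was -0.65 ± 0.16 (SE), with an edgeR adjusted p of 0.0475, close to the threshold. Its direction held with any library left out (-0.72 to -0.60), but the call was lost on leaving out either DBA/2J library (edgeR adjusted p = 0.266 without replicate 1, 0.303 without replicate 2) and with RLE size factors in place of TMM (0.0541; 2 members called against 17.9% of genes).

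The promoters of these 2 microsomal genes are shown because the genes differed between the strains in opposite directions. Each runs from 250 bases before to 50 bases after the annotated start and was taken from RefSeq (GRCm38.p6), which is the C57BL/6J sequence. Capitals mark matches, on either strand, to the core letters of the antioxidant response element bound by NRF2 (TGACNNNGC) or of the dioxin response element bound by AHR (GCGTG); the 2 kinds of match did not overlap here.
Mgst1 (first of 2 listed starts), chr6:138140277-138140576, forward strand: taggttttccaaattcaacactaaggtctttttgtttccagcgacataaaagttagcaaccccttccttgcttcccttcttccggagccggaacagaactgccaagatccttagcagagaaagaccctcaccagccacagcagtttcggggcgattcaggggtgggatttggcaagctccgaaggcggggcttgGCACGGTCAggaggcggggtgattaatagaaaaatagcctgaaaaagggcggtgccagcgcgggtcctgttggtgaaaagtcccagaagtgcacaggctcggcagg
Mgst3, chr1:167393792-167394091, reverse strand: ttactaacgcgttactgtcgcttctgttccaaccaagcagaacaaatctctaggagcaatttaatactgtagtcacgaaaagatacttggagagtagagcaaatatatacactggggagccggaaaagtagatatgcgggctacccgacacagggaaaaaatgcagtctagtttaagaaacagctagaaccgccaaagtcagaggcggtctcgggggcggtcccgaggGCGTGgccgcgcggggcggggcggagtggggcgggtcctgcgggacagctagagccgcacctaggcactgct
In this window Mgst1 held 1 antioxidant element core, whose first base lay 56 bases before the start, and no dioxin element core. Mgst3 held 1 dioxin element core, 22 bases before the start, and no antioxidant element core. Of the 8 members with a promoter entry, 2 held the antioxidant core (Gsta3 and Mgst1) and 4 held the dioxin core (Gsta1, Gsta2, Gstp1 and Mgst3). Among 32851 promoters of the same length, 12.4% held the first and 32.4% the second. A match describes letters and not binding, and the DBA/2J sequence was not used here. Gsta4 and Gstt2 had no entry.

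Gstt1, the main theta-class gene of these livers, was lower in DBA/2J. Theta-class enzymes act on small halogenated compounds and on organic hydroperoxides. Gstt1 lies on chromosome 10 at 75783813 to 75798584 (GRCm38, reverse strand). DBA/2J gave 8311 and 9348 counts and C57BL/6J gave 13001 and 12626, without overlap. DBA/2J averaged 171 CPM ± 2.33 (SD, n = 2) and C57BL/6J averaged 259.9 CPM ± 9.74 (SD, n = 2), 1.52-fold lower in DBA/2J, with a log2 difference of -0.61 ± 0.08 (SE) and an edgeR adjusted p of 0.00823. The difference stayed between -0.65 and -0.57 with any library left out, while the call was lost without DBA/2J replicate 1 (edgeR adjusted p = 0.122) or replicate 2 (0.123).

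Gstt2 lies nearby on the same strand, at 75831114 to 75837424. Its counts were 3282 and 4597 in DBA/2J and 4301 and 4802 in C57BL/6J. Scaled to library size these were 68.0 and 83.1 CPM against 88.2 and 96.2 CPM, both DBA/2J libraries below both C57BL/6J libraries. The log2 difference of -0.29 ± 0.12 (SE) did not pass the test (edgeR adjusted p = 0.147), nor did it with any library left out (edgeR adjusted p from 0.0677 to 0.541). Whether Gstt1 and Gstt2 differed from each other in their strain difference was not tested.

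Gsta3 supplied most alpha-class reads. It encodes the enzyme that detoxifies the epoxide of aflatoxin in mouse liver. Gsta3 spans 21240589 to 21265661 on the forward strand of chromosome 1 (GRCm38), apart from the other alpha genes. Counts were 46931 and 58279 in DBA/2J and 63107 and 68921 in C57BL/6J, or 973 and 1054 CPM against 1295 and 1381 CPM. The libraries did not overlap, but the log2 difference of -0.40 ± 0.12 (SE) did not pass the test (edgeR adjusted p = 0.0729). It passed without C57BL/6J replicate 1 (-0.45, edgeR adjusted p = 0.0483), and in DESeq2 on all 4 libraries (-0.41, DESeq2 adjusted p = 0.00228), where 4 members and 21.1% of genes were called.

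Gsta4 encodes the alpha enzyme with high activity towards hydroxynonenal, a product of lipid peroxidation. On chromosome 9 it spans 78182774 to 78209349 (GRCm38, forward strand). It stood at 71.7 and 72.1 CPM in DBA/2J and at 73.6 and 89.5 CPM in C57BL/6J, from 3458, 3986, 3586 and 4468 counts. The DBA/2J libraries and C57BL/6J replicate 1 were close together, and C57BL/6J replicate 2 was higher. The log2 difference was -0.18 ± 0.11 (SE; edgeR adjusted p = 0.298). Without C57BL/6J replicate 1 it was -0.32 and was called (edgeR adjusted p = 0.0286), and without C57BL/6J replicate 2 it was -0.04 (edgeR adjusted p = 0.788).

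Gsta1 and Gsta2, inducible alpha enzymes, are near-identical genes of the same stretch of chromosome 9, at 78230656 to 78242684 (forward strand) and 78331018 to 78355788 (reverse strand). Over 669 aligned bases their coding sequences differed at 14, an identity of 97.9% (GENCODE release M21, GRCm38). Coding bases 568 to 667 are printed because they are the stretch of read length in which the genes differ most, with the 6 differing bases in capitals.
Gsta1: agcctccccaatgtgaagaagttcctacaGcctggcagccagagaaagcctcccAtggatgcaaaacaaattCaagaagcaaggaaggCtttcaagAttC
Gsta2: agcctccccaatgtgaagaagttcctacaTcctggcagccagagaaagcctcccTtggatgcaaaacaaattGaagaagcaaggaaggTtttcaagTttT
Of the windows of 100 bases, the length of a read, in the coding transcript of Gsta1, 81.8% also occurred in another gene, and 35.0% did in that of Gsta2. Over all annotated transcripts the shares were 80.6% and 28.4%, and with windows of 50 bases in the coding transcript they were 89.7% and 64.2%. At 100 bases the partners were each other and the genes Gm3776, whose coding sequence was 99.7% identical to that of Gsta1, and Gm10639. At 50 bases, over all annotated transcripts, Gsta2 also shared 1.54% of its windows with Gm8074 and 0.0854% with Gm2693.

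Gsta1 had 108 and 304 counts in DBA/2J and 226 and 491 counts in C57BL/6J, or 2.24, 5.50, 4.64 and 9.84 CPM. The strains overlapped, and replicate 2 was above replicate 1 in each strain. Its log2 difference was -0.90 ± 0.51 (SE; edgeR adjusted p = 0.268). Leaving out a library moved it from -1.70 (without DBA/2J replicate 2) to -0.25 (without C57BL/6J replicate 2). It was called without C57BL/6J replicate 1 (-1.33, edgeR adjusted p = 0.0338).

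Gsta2 had 1213 and 1864 counts in DBA/2J and 1247 and 1703 counts in C57BL/6J. As CPM these were 25.1 and 33.7 against 25.6 and 34.1, so the 2 replicates of a strain lay further apart than the strains. The log2 difference was -0.02 ± 0.19 (SE; edgeR adjusted p = 0.95). Its sign changed with the scaling (0.06 with library totals alone) and with the library left out (-0.25 to 0.20). For Gm10639 the counts were 10 and 45 (DBA/2J) and 35 and 96 (C57BL/6J), for Gm3776 11 and 23 (DBA/2J) and 5 and 14 (C57BL/6J), and neither passed the test (edgeR adjusted p = 0.237 and 0.422). Summed into 1 row, Gsta1, Gsta2 and these copies had a log2 difference of -0.18 ± 0.24 (SE; edgeR adjusted p = 0.647).

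Gstp1 and Gstp2 encode enzymes of the pi class, which is abundant in the liver of male mice. They are neighbours on chromosome 19, at 4035407 to 4037921 and 4040285 to 4042236 (GRCm38, both on the reverse strand). Their coding sequences differed at 12 of 633 bases, an identity of 98.1%. The first 100 coding bases are printed because they show what tells a Gstp1 read from a Gstp2 read; the 6 differing bases are in capitals.
Gstp1: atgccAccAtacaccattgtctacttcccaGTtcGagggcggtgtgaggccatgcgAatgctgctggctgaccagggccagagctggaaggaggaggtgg
Gstp2: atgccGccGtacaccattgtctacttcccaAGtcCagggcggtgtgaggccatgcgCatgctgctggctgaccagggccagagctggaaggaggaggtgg
Windows of read length found in another gene made up 52.8% of the Gstp1 coding transcript and 63.5% of the Gstp2 coding transcript. Over all annotated transcripts the shares were 25.1% for Gstp1 and 46.9% for Gstp2. The partners were each other and the processed pseudogene Gstp-ps. The promoters of the pair were 86.2% identical. The pi gene Gstp3, which is not a member, stood at 19.3 and 17.8 CPM in DBA/2J and at 14.8 and 14.2 CPM in C57BL/6J.

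**Figure D3:**
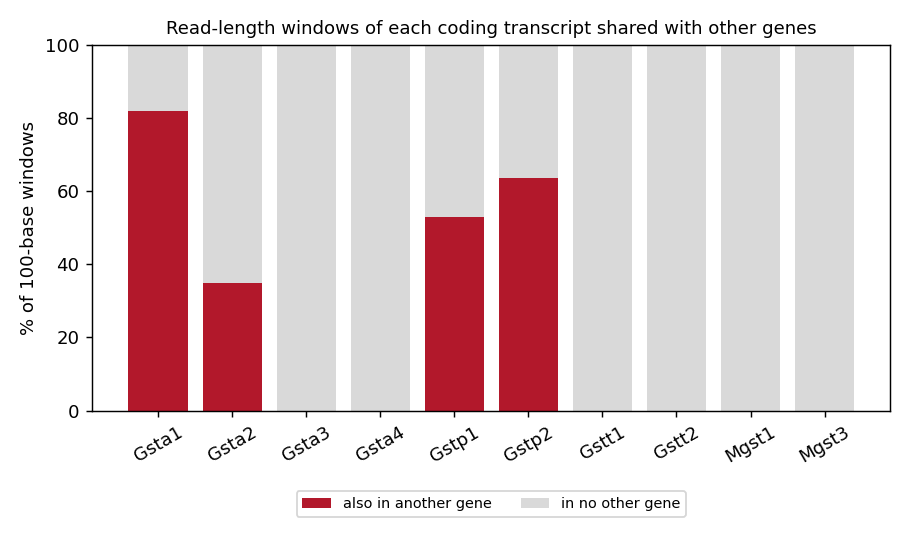
Share of the 100-base windows of each member's coding transcript (vertical axis, %) that also occur in the transcripts of another gene (red) or in no other gene (grey). Sharing is seen for Gsta1 (81.8%), Gsta2 (35.0%), Gstp1 (52.8%) and Gstp2 (63.5%), and is 0% for the other 6 genes.

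Gstp1 had 77593 and 90255 counts in DBA/2J and 63589 and 82352 counts in C57BL/6J. Scaled to library size it stood at 1608 and 1632 CPM against 1305 and 1650.1 CPM, so that the DBA/2J libraries lay between the C57BL/6J libraries. The log2 difference was 0.13 ± 0.16 (SE; edgeR adjusted p = 0.596). Its sign turned without C57BL/6J replicate 1 (-0.03).

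Gstp2 had few counts, 153 and 229 in DBA/2J and 729 and 225 in C57BL/6J. C57BL/6J replicate 1 was high at 15.0 CPM, and the other 3 libraries stood at 3.17, 4.14 and 4.51 CPM. The log2 difference of -1.41 ± 0.55 (SE) did not pass the test (edgeR adjusted p = 0.13). Without C57BL/6J replicate 1 it was -0.30, and without C57BL/6J replicate 2 it was -2.03. C57BL/6J replicate 1 also stood apart in neutrophil markers and in Hmox1 (77.9 CPM). Whether any of these is linked to its Gstp2 level was not tested. The pseudogene Gstp-ps, with 706 and 911 counts (DBA/2J) and 702 and 790 (C57BL/6J), was not raised in the library with high Gstp2. Summed, Gstp1, Gstp2 and Gstp-ps had a log2 difference of 0.13 ± 0.16 (SE; edgeR adjusted p = 0.611), since nearly all of their counts were those of Gstp1.

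Among the members of each class, 1 gene took most of the counted reads in every library. These shares are of the members' reads, not corrected for length. Other genes of the classes, such as Gstp3 and Gstt3, are not counted in them. Gstt3 stood at 27.7 and 28.2 CPM in DBA/2J and at 27.5 and 45.3 CPM in C57BL/6J. Gsta3 held 90.4% to 92.6% of the alpha reads, Gstp1 held 98.9% to 99.8% of the pi reads, Gstt1 held 67.0% to 75.1% of the theta reads and Mgst1 held 98.8% to 99.7% of the microsomal reads. Mgst3 made up 0.936% and 1.15% of the microsomal reads in DBA/2J, compared with 0.277% and 0.263% for C57BL/6J. Read over all 10 genes, Gstp1 took 29.9% and 30.6% in the DBA/2J libraries and 19.6% and 22.6% in those of C57BL/6J, and Mgst1 took 45.3% and 42.3% against 53.8% and 51.7%.

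Class totals were summed over the members, as values without a test. For the microsomal pair, DBA/2J livers had 2371 CPM ± 131 (SD, n = 2) and C57BL/6J livers 3691 CPM ± 138 (SD, n = 2). For the theta pair the sums were 246 CPM ± 8.33 and 352 CPM ± 4.11 (SD, n = 2 each), and for the 4 alpha genes 1118 CPM ± 65.7 and 1457 CPM ± 81.9 (SD, n = 2 each). In these 3 classes the DBA/2J libraries lay below the C57BL/6J libraries. The pi pair summed to 1624 CPM ± 17.0 in DBA/2J and 1487 CPM ± 237 in C57BL/6J (SD, n = 2 each), and the libraries overlapped under TMM scaling. With library totals alone they only just failed to overlap, at 1616 CPM in DBA/2J replicate 1 and 1614 CPM in C57BL/6J replicate 2. All 10 members together gave 5387 and 5331 CPM in DBA/2J and 6667 and 7307 CPM in C57BL/6J.

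**Figure D4:**
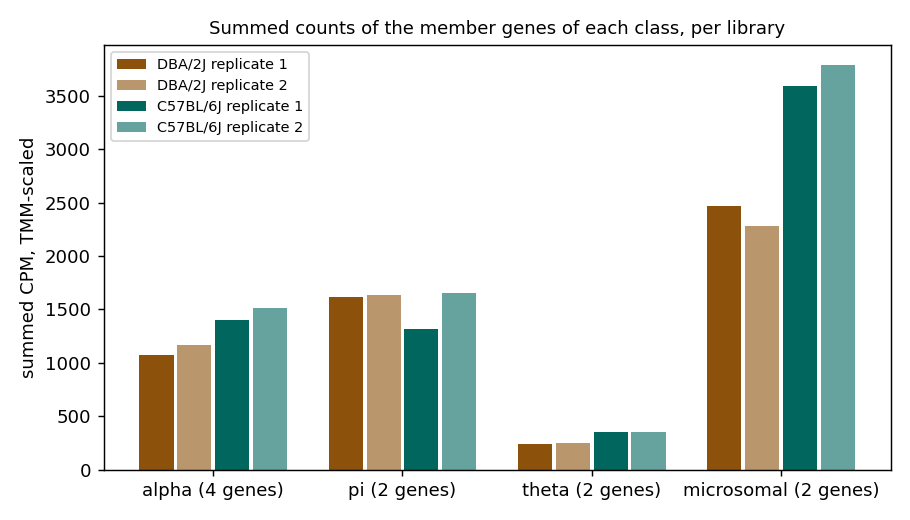
Summed CPM of the member genes of each class (vertical axis, TMM-scaled, from 0), with a bar for each library; brown bars are DBA/2J and green bars C57BL/6J, darker for replicate 1. Microsomal, theta and alpha bars are lower in both DBA/2J libraries, whereas the pi bars overlap between the strains under TMM scaling. With library totals alone the pi sums only just failed to overlap (1616 CPM in DBA/2J replicate 1, 1614 CPM in C57BL/6J replicate 2).

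Levels of different genes were compared as CPM per kilobase of exon length in the count tables. In DBA/2J the order was Gstp1 (2140.0 CPM per kilobase), Mgst1 (1166), Gsta3 (233), Gstt1 (112), Gsta4 (56.8), Gsta2 (25.0), Mgst3 (22.5), Gstt2 (18.2), Gstp2 (4.75) and Gsta1 (4.05). Neighbours in this order whose libraries overlapped were Gsta2 and Mgst3, and Gstp2 and Gsta1. In C57BL/6J the first 6 places were the same, with Gstp1 at 1952 and Mgst1 at 1829 CPM per kilobase overlapping. Gsta2 (25.4) overlapped the next gene, Gstt2 (22.2), and Mgst3 stood in the 9th place at 9.09 CPM per kilobase, overlapping with its neighbours Gstp2 (12.6) and Gsta1 (7.57). The exon length of a symbol covers all its annotated transcripts, 4344 bases for Gsta3 against 1457 in its coding transcript. Per kilobase of coding transcript, a setting chosen after the data were seen, Mgst1 came before Gstp1 in both strains, at 2278 against 1973 in DBA/2J and 3574 against 1799.5 in C57BL/6J, with no overlap. With kilobases counted as starts of read-length windows found in no other gene, also chosen after the data were seen, Gstp1 came first again, at 4751 CPM against 2521 for Mgst1 in DBA/2J, and at 4333 against 3954, overlapping, in C57BL/6J. On that scale Gsta1 left the last place, at 27.4 CPM in DBA/2J and 51.3 CPM in C57BL/6J. The last gene was then Gstp2 in DBA/2J (14.3) and Mgst3 in C57BL/6J. The order of Gstp1 and Mgst1 thus turned with the length used.

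Other genes of glutathione metabolism, and genes of the pathways that induce transferases, were described from 5 lists by their counts, with no set test. All of those tested are shown in the plot of log2 differences by list. The shares called below stand beside 18.2% of all tested genes (9.29% higher and 8.87% lower). Among 17 tested transferase and MAPEG genes outside the 10 members, 2 were called higher and 2 lower in DBA/2J (23.5%), with a median log2 difference of 0.02. The mu-class gene Gstm3 was higher (1.17 ± 0.17, edgeR adjusted p = 0.0104), as was Hpgds, which encodes the haematopoietic prostaglandin D synthase, at a mean of 0.954 against 0.365 CPM (edgeR adjusted p = 0.0395). Lower were Gsto1, an omega-class gene (-0.68 ± 0.08, edgeR adjusted p = 0.00669), and Gstk1, the kappa-class gene of mitochondria and peroxisomes (-0.42 ± 0.07, edgeR adjusted p = 0.018).

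Of 17 tested genes of glutathione synthesis and turnover, 2 were called higher and 2 lower (23.5%; median -0.01). The subunits of glutamate-cysteine ligase, which catalyses the first step of glutathione synthesis, were called in opposite directions. Gclc, the catalytic subunit, had 19769 and 21628 counts (DBA/2J) and 14921 and 11919 (C57BL/6J) (0.56 ± 0.14, edgeR adjusted p = 0.0429). Gclm, the modifier subunit, had 7617 and 9021 counts in DBA/2J and 11939 and 11712 in C57BL/6J (-0.58 ± 0.08, edgeR adjusted p = 0.00911). Slc3a2, the heavy chain of several amino acid transporters, was higher (0.54) and Ggt6, of the gamma-glutamyltransferase family, lower (-0.55).

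Of 14 other enzymes that use glutathione, 1 was called higher and 4 lower (35.7%; median -0.16). Glo1, which encodes glyoxalase for the removal of methylglyoxal, was higher by 1.19 ± 0.09 (edgeR adjusted p = 0.00137) and kept its call with any library left out (edgeR adjusted p up to 0.0383). The glutathione peroxidase genes Gpx3, Gpx4 and Gpx7 stood at -1.02, -0.35 and -1.33, and the mitochondrial glutaredoxin gene Glrx5 at -0.39. For the export of conjugates and their further conversion to mercapturates, 2 of 12 tested genes were called, both lower (16.7%; median -0.09). These were Nat8, which encodes the acetyltransferase of the last mercapturate step (5.34 CPM ± 0.393 in DBA/2J and 21.8 CPM ± 8.29 in C57BL/6J, SD, n = 2 each), and Kyat3, a cysteine conjugate beta-lyase (-0.73 ± 0.08, edgeR adjusted p = 0.0042). Ccbl1 and Ccbl2, listed as older names of the Kyat genes, were not symbols of the tables.

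Of 23 receptors, partners and sentinel targets of the pathways that induce transferases, 0 were called higher and 2 lower by edgeR (8.70%; median -0.21). The 2 were Maff, a small Maf protein that pairs with NRF2 (-1.33 ± 0.25, edgeR adjusted p = 0.0212), and Nr1i2, the gene of the receptor PXR (-0.46 ± 0.09, edgeR adjusted p = 0.0203). With DESeq2, 1 gene of this list was called higher. Nfe2l2, the gene of NRF2, stood at -0.23 (edgeR adjusted p = 0.105), Ahr at -0.31 (0.0653) and Nr1i3, the gene of CAR, at -0.36 (0.134). The NRF2 targets Nqo1, Txnrd1, Srxn1 and Hmox1 stood at -0.24, -0.18, 0.15 and -1.71. Hmox1 was at 77.9 CPM in C57BL/6J replicate 1 and at 14.1 to 15.8 CPM in the other libraries. The AHR targets Cyp1a1, Cyp1a2, Cyp1b1 and Tiparp stood at 0.58, 0.40, -0.25 and -0.43. Ephx1 and Ugdh were each at 0.03, Cyp2b10 at -0.00 and Cyp3a11 at 0.25. None of these targets passed the edgeR test. Of the called genes of the 5 lists, Glo1 alone was called without DBA/2J replicate 1 and without DBA/2J replicate 2.

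**Figure D5:**
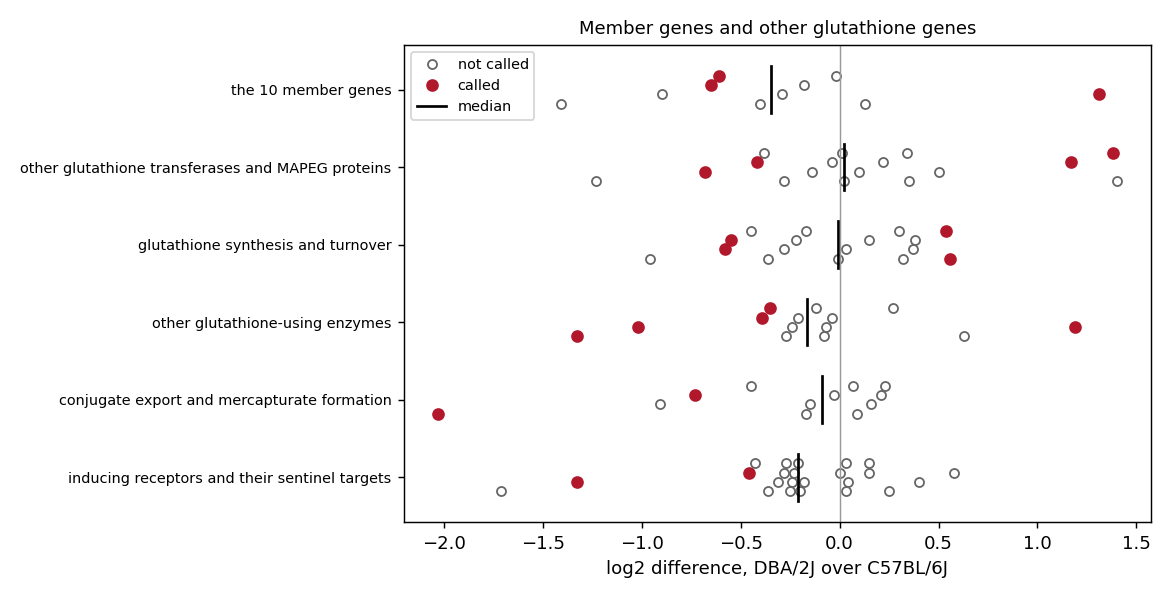
Log2 difference between the strains (horizontal axis) of each tested gene of the 10 members and of 5 lists of other glutathione genes and inducing pathways. Red points passed the edgeR test at an adjusted p below 0.05, open points did not, and black bars are medians. The member median of -0.34 lies to the left of the medians of the 5 lists, which run from -0.21 to 0.02.

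The members sit at 6 loci, and tested genes that start within 500 kb of a member's start were counted there. Over all loci 10 of 85 neighbours were called higher and 12 lower in DBA/2J, 25.9% in all. Among all tested genes the share called was 18.2% (9.29% higher and 8.87% lower). At the Gstt locus on chromosome 10, 5 of 17 neighbours were called, all lower as Gstt1 was: Snrpd3 (-0.48), Chchd10 (-0.49), Derl3 (-0.91), Mif (-0.35) and Ddt (-0.38). Mif and Ddt encode related tautomerases and start 22.8 and 25.2 kb from a theta gene. Around Mgst3 2 of 4 were called, Rxrg, a retinoid X receptor gene, higher (1.32) and Uck2, a uridine kinase gene, lower (-0.76). None of the 4 tested neighbours of Mgst1 was called by edgeR (0 of 4).

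Near Gsta1, Gsta2 and Gsta4 4 of 17 neighbours were higher and 1 lower. Higher were Elovl5 (0.76), Gm8116 (3.37), RP23-268C22.2 (2.49) and Gclc, which starts 428 kb from the nearest of these alpha genes; C920006O11Rik was lower (-2.54). Beside Gsta3 Gm4956 was lower (-2.88) and Tram2 (0.85) and Gm7658 (2.13) were higher, of 7 neighbours. Of 36 genes near the pi pair, 3 were higher and 4 lower. Higher were Aldh3b1 (0.85), Tcirg1 (0.32) and Lrp5 (0.69), and lower were Rps6kb2 (-0.58), Cdk2ap2 (-0.60), Ndufs8 (-0.42) and 2010003K11Rik (-0.72). With either DBA/2J library left out, hardly any neighbour was called, and few genes were called across the whole table.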

How the data were processed

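The authors' deposited values were whole-number read counts per gene symbol. The count step was featureCounts 2.0.1, per the file headers, run on exons of Ensembl release 88 (GRCm38); the submitters' processing notes name STAR 2.4.0g1 and featureCounts 1.5.2. The headers carry a paired-end option, although the labels state single-end reads of 100 bases, and none for strand or for reads with several alignments. Under the usual behaviour of that program such reads go uncounted, which bears on Gsta1, Gsta2, Gstp1 and Gstp2. No exon of a member overlapped another symbol. Reads of both strains were counted on GRCm38, a C57BL/6J reference, and the effect on DBA/2J reads was not tested. Exon lengths are those deposited with the counts.

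Counts were tested with edgeR 4.0.16 (R 4.3.3) by glmQLFit (legacy=FALSE) and glmQLFTest, with TMM scaling, strain as the sole term and filterByExpr at a minimum count of 10. P-values were adjusted by Benjamini-Hochberg over 15647 genes and called below 0.05. A standard error is the log2 difference divided by the square root of its F value. The fit was tested on simulated counts: the share of false calls stayed below the threshold of 0.05 when dispersions followed the trend over expression, but exceeded it when they varied gene by gene, the draw that was made first. Adjusted p-values near 0.05, such as that of Mgst1, may therefore be too small. DESeq2 1.42.0 was an alternative, as were other scalings, no filter, the older edgeR fit, a replicate block, each library left out (the lone library of a strain is then assumed to vary like the other strain's), and copies summed. Windows were searched on both strands in the transcripts of GENCODE M21, not in the whole genome.

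All 10 members are named, with the called genes of each list and the called neighbours, up to 4 per locus or all where 5 or fewer were called in 1 direction. Members and lists were chosen with earlier results of these data known.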

Additional observations from a re-analysis of the deposited data

How the results depend on the processing

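Across the whole table, 1454 genes were called higher and 1388 lower in DBA/2J (51.2% higher); with library totals alone 1924 were higher and 1024 lower (65.3% higher), and with no filter on low counts, where 25810 genes were tested, 809 and 707. With any library left out the counts ran from 186 to 2450 higher and from 106 to 2455 lower, lowest without DBA/2J replicate 1 and highest without C57BL/6J replicate 2. Members called ran from 0 to 1 higher and from 0 to 5 lower; 1 member was lower with RLE size factors. Among members Gsta2 changed sign with library totals alone (0.06) and across left-out libraries (-0.25 to 0.20), Gstp1 across left-out libraries (-0.03 to 0.31), and Gstp2 when its copies were summed (0.13), where Gstp1 holds nearly all counts. The log2 differences of the other 7 members kept their direction under every alternative run.

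In the lists, left-out libraries gave 0 to 3 higher and 0 to 4 lower among other transferases, 0 to 5 and 0 to 4 in glutathione synthesis, 1 to 2 and 0 to 5 in other glutathione-using enzymes, 0 to 2 and 0 to 3 in export and mercapturates, and 0 and 0 to 9 in inducing receptors and targets. Neighbours ran from 0 to 13 higher and from 0 to 17 lower. The share of all tested genes called moved too, lowest without DBA/2J replicate 1 and highest without C57BL/6J replicate 2. These ranges therefore cannot be read as behaviour of the lists or neighbours alone. With no filter, 5.87% of all tested genes were called. Calls were then 1 higher and 1 lower in other transferases, 0 and 1 in synthesis, and 1 lower in other glutathione-using enzymes. In that setting 0 were called lower in inducing receptors and 6 higher among neighbours. DESeq2 gave 1 higher in other transferases, 2 higher in other glutathione-using enzymes, 4 lower in export and 1 higher in inducing receptors. Library totals alone gave 4 higher in synthesis, 2 higher and 2 lower in other glutathione-using enzymes and 1 higher in inducing receptors, and moved the pi total in DBA/2J to 1669.6 CPM and the theta total in C57BL/6J to 342 CPM. Causes were not tested beyond the number of genes or libraries used.

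Replicate numbers are shared by the strains, but nothing ties same-numbered animals together: their deviations from the strain means correlated at -0.064 over 15647 genes. A replicate block gave 1220 higher and 1175 lower genes (15.3% in all) and 3 called members, with Gsta1 called (-0.93, edgeR adjusted p = 0.0307) and Mgst1 not (-0.65, edgeR adjusted p = 0.0811), 1 higher gene in other transferases, and 2 higher and 2 lower in other glutathione-using enzymes. With 2 libraries per strain, the spread of low-count members (Gsta1, Gstp2) limits what could be detected. Small differences could be missed at higher counts too. In the simulated counts, log2 differences of 0.5 were recovered in 16% of cases where dispersions followed the trend and in 2.04% where they varied gene by gene. Differences of 1 were recovered in 52% and 59.2%. Each size was given to 50 genes only, with 15311 genes tested in the trended draw, whereas 18.2% of genes were called in the data. The adjustment is stricter where fewer genes differ, so these rates cannot be taken as the power for the members. The uncalled Gsta3 (-0.40), Gstt2 (-0.29) and Gsta4 (-0.18) were smaller than 0.5 in size.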
